A study of Gallus gallus with 8 samples.

Results

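The nuclear genes of the mitochondrial respiratory chain and ATP synthase were compared between neural tube cells of the chick that were or were not using a BMP reporter. Members were taken by their symbols in the authors' deposited array table: those starting with NDUF, UQCR, ATP5 or COX and a digit, the SDH genes A to D, and CYC1. Where a symbol had several probe sets, the one that was brightest on average across the 8 arrays stood for it. This gave 50 genes of the 13257 with a symbol, of which 29 were placed in complex I, 2 in complex II, 1 in complex III, 3 in complex IV and 10 in complex V, with 4 assembly or accessory factors set apart. The remaining member, COX4NB, matched by its spelling alone. It is described in the table as the neighbour of COX4 and its gene ID is that of EMC8, a subunit of a membrane protein complex of the endoplasmic reticulum, so it was counted among the 50 and placed in no complex. CYC1, SDHB, SDHC and the genes of mitochondrial DNA were not analysed here.

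The respiratory chain sits in the inner mitochondrial membrane. Complexes I and II pass electrons from NADH and succinate to coenzyme Q, complex III passes them on to cytochrome c, and complex IV gives them to oxygen. Complexes I, III and IV pump protons as they do so, and complex V, the ATP synthase, makes ATP as the protons flow back. Most subunits are encoded in the nucleus and imported, and dedicated assembly factors build each complex. The roles given below are those of the mammalian proteins.

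The study sorted cells by a reporter for bone morphogenetic protein (BMP) signalling, a pathway that acts in the dorsal neural tube, where neural crest cells form. White Leghorn embryos at Hamburger and Hamilton stages 10 to 11 received both plasmids, one with green fluorescent protein (EGFP) behind a BMP-responsive element (pBRE-tk-EGFP) and one with a nuclear red protein behind the CAGGS promoter (pCAGGS-IRES-H2B-RFP). Neural tubes were dissected 24 h after electroporation, nearly 30 embryos were pooled, and in each of 4 pools the red cells that were also green (BRE_active) were sorted from the red cells that were not (BRE_inactive). The labels give at least 100000 red and at least 20000 green cells, so the number of cells may have differed between the fractions. The part of cell number in the differences was not tested. Each fraction of each pool gave 1 Affymetrix array, so there were 4 arrays per group. Both groups came from embryos given both plasmids, uptake in BRE_inactive cells is marked by red fluorescence alone, and the cells of many embryos were mixed in each pool.

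All values are log2 levels, and all differences are BRE_active minus BRE_inactive. The array medians lay between 4.24 and 4.32. The 6 neural tube markers looked at (among them SOX2, SOX3 and PAX6) were present on all 8 arrays by the authors' detection calls, and 2 of the 6, SOX3 and PAX6, fell in BRE_active cells. The 5 neural crest markers (SNAI2, SOX10, FOXD3, TFAP2B and EDNRB) all rose. Over all genes with a symbol 1.55% rose and 0.656% fell. Of the 50 members, 48 were present on all 8 arrays. NDUFS5 was present on 4 arrays. The probe set chosen for ATP5J was present on 0, so it was not above background and gives only a bound, while the other 2 ATP5J probe sets, with lower mean signal, were present on all 8.

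In the main fit, on group alone, no respiratory chain gene passed the test in either direction, while most had slightly lower values in BRE_active cells. With limma over all 38439 probe sets and an adjusted p threshold of 0.05, 0 of the 50 members were called higher and 0 lower, where 1.55% of all genes with a symbol were called higher and 0.656% lower. Over the 6117 genes present on all 8 arrays those shares were 2.4% and 1.01%, so few calls would be looked for among 50 genes. At an unadjusted p under 0.05, 6 members were lower and 0 higher, against 8.06% of all genes lower and 8.95% higher. Among the genes present on all arrays these were 8.76% and 12.9%. In a limma fit with a block for each pool, 1 member was called lower and 0 higher, against 2.56% and 4.9% of all genes and 3.97% and 7.77% of the genes present on all arrays. With that block 13 members were lower and 0 higher at an unadjusted p under 0.05, against 11.5% and 13.4% of all genes and 13.9% and 20.8% of the genes present on all arrays. The 95% confidence intervals of the chosen probe sets of all 50 members lay within 1 log2 unit of 0. The lowest bound was -0.78 and the highest 0.26, so for these probe sets changes of 2-fold or more lay outside the intervals. For ATP5J and NDUFS5 the intervals cannot exclude such a change in the RNA, because these probe sets lay near background. Intervals of a dimmer ATP5C1 probe set, present on all 8 arrays, and a dim ATP5O one, present on 6, reached above 1 log2 unit. In these bulk samples, fewer cells of a type and less RNA per cell cannot be told apart.

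The direction of the small differences was shared by most members. The difference was below 0 for 43 of 50 (86%), against 54.8% of all genes and 46.1% of the genes present on all arrays. Within pools, 19 members (38%) were lower in all 4 pools, against 17.1% of all genes and 18% of those present on all arrays, and 0 members were higher in all 4 pools, against 15.5% and 23.1%. No member had groups that did not overlap, in either direction, where 4.1% of all genes had BRE_active arrays all below the others and 4.88% all above (3.86% and 6.72% of the genes present on all arrays). Over the 50 members the median difference was -0.11, beside -0.02 over all genes and 0.02 over the genes present on all arrays. Genes measured on the same arrays are not independent replicates, so these counts are descriptions and carry no test. The median was -0.07 without pool 1, -0.20 without the BRE_active array of pool 4 and -0.18 without the BRE_inactive array of pool 3.

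**Figure D1:**
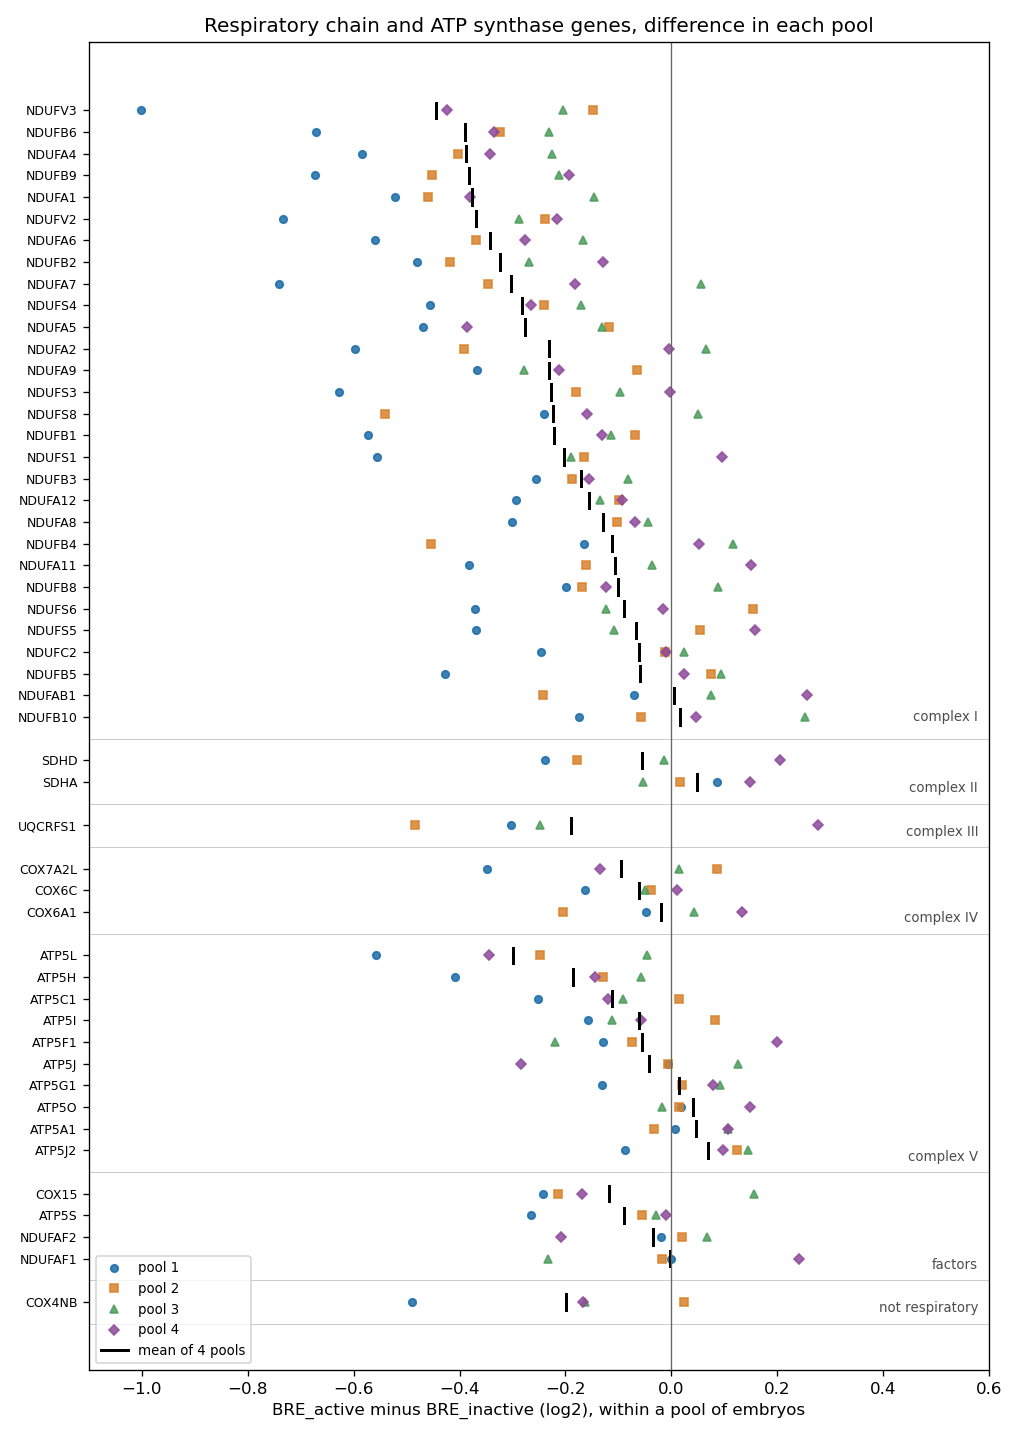
Difference of each of the 50 members within each pool of embryos (BRE_active minus BRE_inactive, log2), grouped by complex and sorted by the mean of the 4 pools (black bar). In complex I 27 of 29 means lie left of 0 and the pool 1 points lie mostly farthest to the left, while the means of complexes II, IV and V lie between -0.30 and 0.07.

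Complex I, the NADH dehydrogenase, held most of the members that were lower in all 4 pools. Its 29 members had a median difference of -0.22, and 27 of them were below 0. Complex I makes up 29 of the 50 members, so a large part of any count falls in it. Of its members 55.2% were lower in all 4 pools, against 12.5% of those of complexes II to V. The share was 17.1% of all genes and 18% of the genes present on all arrays. At an unadjusted limma p under 0.05, 8.06% of all genes were lower. The 6 members with an unadjusted p under 0.05 were all in complex I, as were 16 of the 19 members lower in all 4 pools. NDUFA4, counted with complex I by its symbol, is among both. With NDUFA4 counted in complex IV instead, an alternative chosen after seeing the data, complex I held 5 of the 6 and 15 of the 19, and its median over 28 genes was again -0.22, while that of complex IV over 4 genes was -0.08. Averaged over the 29 genes, the level in BRE_inactive cells was 10.73 in pool 1, 10.50 in pool 2, 10.42 in pool 3 and 10.71 in pool 4. In BRE_active cells it was 10.27, 10.29, 10.34 and 10.60 in the same order. The BRE_active array was thus the lower in each pool, while the groups overlapped, because the BRE_active array of pool 4 lay above the BRE_inactive arrays of pools 2 and 3. The group means were 10.59 ± 0.15 and 10.37 ± 0.15 (SD, n = 4 each), and the difference of these means was below 0 in all 4 pools (-0.45, -0.21, -0.08 and -0.11). Pool 1 had the lowest pool median, -0.45, and the others had -0.18, -0.11 and -0.13. Without pool 1 the complex I median was -0.11, without the BRE_active array of pool 4 it was -0.33, and with the mean of all probe sets of each symbol in place of the brightest it was -0.13. That mean also counts probe sets present on 0 arrays, such as the other ones of NDUFV2.

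**Figure D2:**
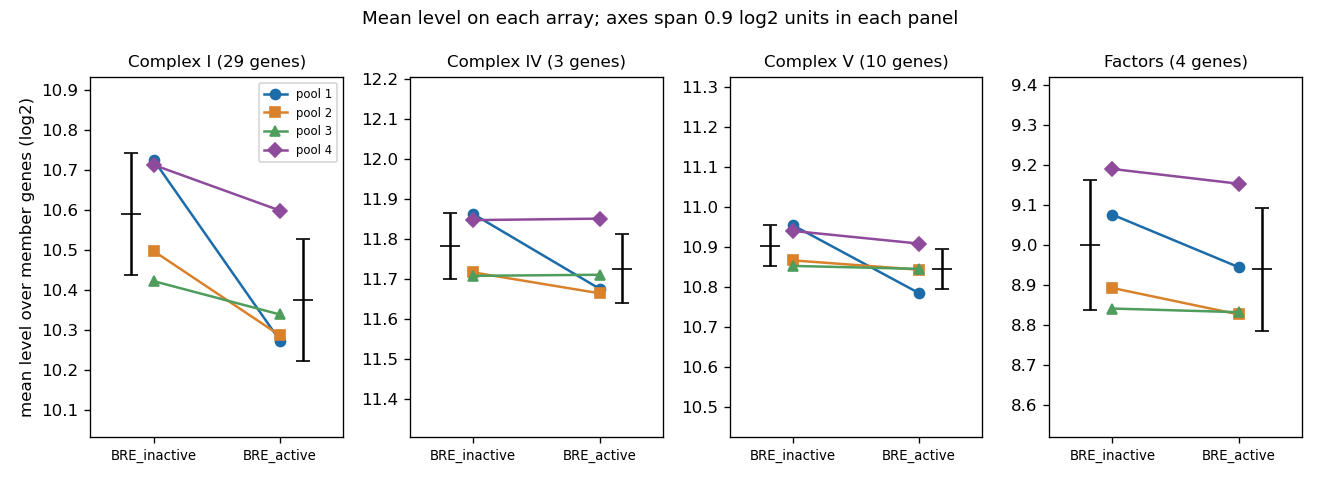
Mean log2 level over the members of complexes I, IV and V and of the factors on each array, with lines joining the arrays of a pool and bars for the group mean ± SD (n = 4). Each panel spans 0.9 log2 units around its own level. The complex I lines go down in all 4 pools, most steeply in pool 1, and the groups overlap in every panel.

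NDUFA4 had the smallest p of all members. Its protein was first counted with complex I and was later assigned to complex IV. It measured 12.78, 12.58, 12.45 and 12.87 in the BRE_inactive arrays of pools 1 to 4, and 12.20, 12.17, 12.23 and 12.53 in the BRE_active arrays. The BRE_active array was the lower in every pool, and the BRE_active array of pool 4 lay inside the range of the other group. The difference was -0.39 ± 0.12 (SE), with a limma adjusted p of 0.195. In the fit with the pool as a block, NDUFA4 was the single member called, lower in BRE_active cells with a limma adjusted p of 0.0477. Its adjusted p was between 0.0559 and 0.662 when an array or a pool was left out.

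NDUFV3 and NDUFV2 belong to the module of complex I that oxidises NADH. NDUFV3, a small accessory subunit, measured 10.90, 10.26, 10.41 and 10.74 in BRE_inactive and 9.90, 10.11, 10.20 and 10.32 in BRE_active cells. The difference was -0.44 ± 0.15 (SE), and the limma adjusted p of 0.237 did not pass. Its pool differences ran from -1.0 in pool 1 to -0.15 in pool 2, so pool 1 stood well below the others. NDUFV2, an iron-sulfur core subunit, measured 10.29, 9.86, 9.83 and 10.20 in BRE_inactive and 9.55, 9.62, 9.55 and 9.99 in BRE_active cells. The groups overlapped through pool 4, and the difference was -0.37 ± 0.14 with a limma adjusted p of 0.290.

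Complex I members grouped by symbol, which does not divide them by arm of the complex, had similar medians. The 8 NDUFS and NDUFV genes, which include the core subunits that carry electrons, had a median difference of -0.22, and all 8 were below 0. The 11 NDUFA genes (NDUFAB1 and NDUFA4 included), mostly accessory subunits, had a median of -0.23. The 9 NDUFB genes, accessory subunits of the membrane arm, had a median of -0.17. The other members with an unadjusted p under 0.05 were NDUFB6, NDUFS4 and NDUFB9, which are named for that and so were chosen after their values were seen. NDUFB6 and NDUFB9 are accessory subunits of the membrane arm, with differences of -0.39 ± 0.15 and -0.38 ± 0.17. NDUFS4, an accessory subunit of the matrix arm, differed by -0.28 ± 0.11. These 3 were lower in all 4 pools, and their limma adjusted p-values were 0.298 for NDUFB6, 0.348 for NDUFB9 and 0.304 for NDUFS4.

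At the other end, also chosen by value, were the complex I members with differences nearest to 0 or above. NDUFAB1, the acyl carrier protein that is also a complex I subunit, differed by 0.0051 ± 0.09, and NDUFB10, of the membrane arm, by 0.02 ± 0.10. NDUFS5, the complex I member with the lowest level, measured 5.83, 5.60, 5.56 and 5.61 in BRE_inactive and 5.46, 5.65, 5.46 and 5.77 in BRE_active cells. Those groups overlapped and the NDUFS5 difference was -0.07 ± 0.10 (limma adjusted p = 0.810). It was present on 3 BRE_inactive and 1 BRE_active array, so it was close to the limit of detection.

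**Figure D3:**
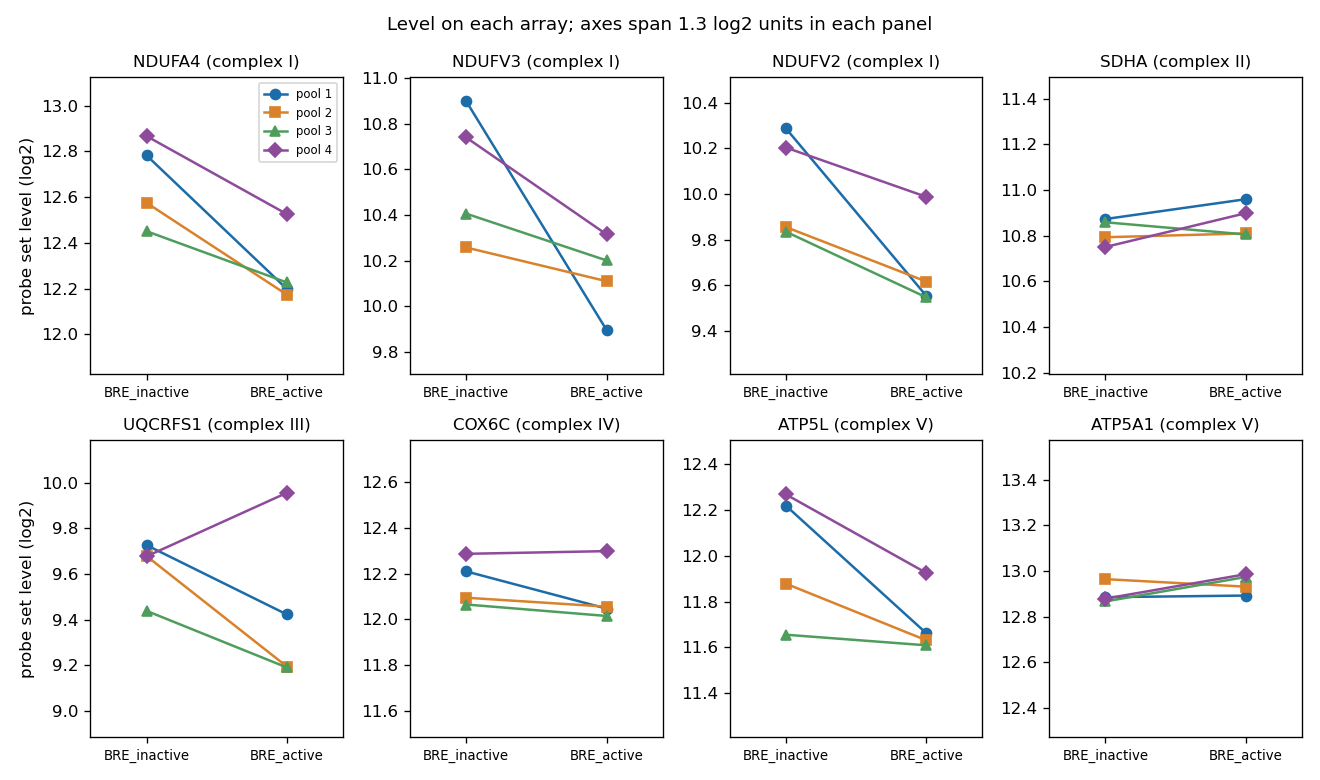
Log2 level of 8 members on each array, with lines joining the arrays of a pool of embryos. Each panel spans 1.3 log2 units. NDUFA4, NDUFV3, NDUFV2 and ATP5L are lower in the BRE_active array of all 4 pools, SDHA and ATP5A1 differ by 0.05 between groups, and UQCRFS1 is lower in pools 1 to 3 and higher in pool 4.

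Complex II, succinate dehydrogenase, was measured by its catalytic flavoprotein SDHA and the membrane anchor SDHD, and its median difference was -0.0032. SDHA measured 10.87, 10.79, 10.86 and 10.75 in BRE_inactive and 10.96, 10.81, 10.81 and 10.90 in BRE_active cells. The groups overlapped, and the difference of 0.05 ± 0.08 (95% interval -0.12 to 0.22) had a limma adjusted p of 0.810. SDHD measured 10.83, 10.77, 10.66 and 10.84 in BRE_inactive and 10.59, 10.59, 10.65 and 11.05 in BRE_active cells. Pool 4 alone was higher in BRE_active cells, and the difference was -0.06 ± 0.11 (limma adjusted p = 0.864).

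For complex III the symbol rule found UQCRFS1, the Rieske iron-sulfur subunit that carries electrons toward cytochrome c. It measured 9.73, 9.68, 9.44 and 9.68 in BRE_inactive and 9.42, 9.19, 9.19 and 9.96 in BRE_active cells. The BRE_active array was lower in pools 1, 2 and 3 and higher in pool 4. The difference was -0.19 ± 0.165 (95% interval -0.56 to 0.18) with a limma adjusted p of 0.649.

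The 3 complex IV members, small nuclear-encoded proteins of or near cytochrome c oxidase, had a median difference of -0.06. COX7A2L, which joins complexes III and IV into supercomplexes, measured 11.37, 11.08, 11.17 and 11.34 in BRE_inactive and 11.02, 11.16, 11.18 and 11.21 in BRE_active cells, a difference of -0.10 ± 0.09 (limma adjusted p = 0.687). COX6C measured 12.21, 12.10, 12.07 and 12.29 against 12.05, 12.06, 12.02 and 12.30, a difference of -0.06 ± 0.09 (limma adjusted p = 0.812). COX6A1 measured 12.01, 11.97, 11.89 and 11.91 against 11.96, 11.77, 11.93 and 12.04, a difference of -0.02 ± 0.08 (limma adjusted p = 0.942). All 3 pairs of groups overlapped, and the 95% intervals of the 3 genes lay between -0.30 and 0.17.

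Complex V, the ATP synthase, lay close to 0. Its 10 members had a median difference of -0.05, with 6 below 0 and 4 above. The pool medians were -0.13, 0.0046, -0.03 and 0.01, so pool 1 was again the lowest. Averaged over the 10 genes, the level was 10.90 ± 0.05 in BRE_inactive and 10.85 ± 0.05 in BRE_active cells (SD, n = 4 each). ATP5A1, the alpha subunit and the complex V member with the highest level, measured 12.89, 12.96, 12.87 and 12.88 in BRE_inactive and 12.89, 12.93, 12.97 and 12.99 in BRE_active cells. Its difference was 0.05 ± 0.07 (95% interval -0.11 to 0.21, limma adjusted p = 0.805). By its gene ID it is the copy on the Z chromosome, and RefSeq lists a copy on W as well, whose RNA the probe set may share. ATP5C1, the gamma subunit, differed by -0.11 ± 0.09 (limma adjusted p = 0.606). A much dimmer ATP5C1 probe set, also present on all 8 arrays, went the other way. It differed by 0.57 ± 0.24 (limma adjusted p = 0.339) and was higher in 3 pools.

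The largest complex V differences were in ATP5L and ATP5H. ATP5L, subunit g of the membrane part, measured 12.22, 11.88, 11.65 and 12.27 in BRE_inactive and 11.66, 11.63, 11.61 and 11.93 in BRE_active cells. It was lower in all 4 pools with overlapping groups, and the difference was -0.30 ± 0.145 (limma adjusted p = 0.399). ATP5H, subunit d of the peripheral stalk, measured 12.86, 12.63, 12.59 and 12.82 against 12.45, 12.51, 12.53 and 12.67. It too was lower in all 4 pools, by a mean of -0.18 ± 0.09 (limma adjusted p = 0.417). Differences from -0.06 to 0.07 were measured for 5 more members (ATP5F1, ATP5G1, ATP5I, ATP5J2 and ATP5O). For ATP5J2 (0.07), the other probe sets present on all 8 arrays differed by -0.17, -0.07 and 0.10. For ATP5O (0.04), those present on all 8 arrays differed by -0.13 and -0.04. The signs of ATP5J2 and ATP5O thus depend on the probe set chosen. The chosen ATP5J probe set, not above background, read 4.54, 4.59, 4.45 and 4.58 against 4.53, 4.58, 4.58 and 4.29. Of the other ATP5J probe sets, present on all 8 arrays, one differed by -0.24 ± 0.09 and was lower in all 4 pools (limma adjusted p = 0.30), and one differed by -0.17 ± 0.18 (limma adjusted p = 0.712).

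Complex I and complex V, the largest sets, could be set beside each other within each pool. The complex I median minus the complex V median was -0.33 in pool 1, -0.18 in pool 2, -0.08 in pool 3 and -0.14 in pool 4, and -0.17 for the 4-pool means. With the chosen probe sets complex I was thus the lower in every pool, by least in pool 3 and by most in pool 1. The complex V median includes ATP5J, whose chosen probe set was not above background. It also includes ATP5J2 and ATP5O, whose signs depend on the probe set. With the mean of all probe sets of each symbol, those not above background included, the complex I median was -0.13. The complex V median lay between -0.07 and -0.02 over the 21 alternatives described below. No test of the difference between complexes was made, because the members were not chosen independently of these data and genes are not replicates. The numbers of genes in complexes II, III and IV are too small for the same comparison.

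**Figure D4:**
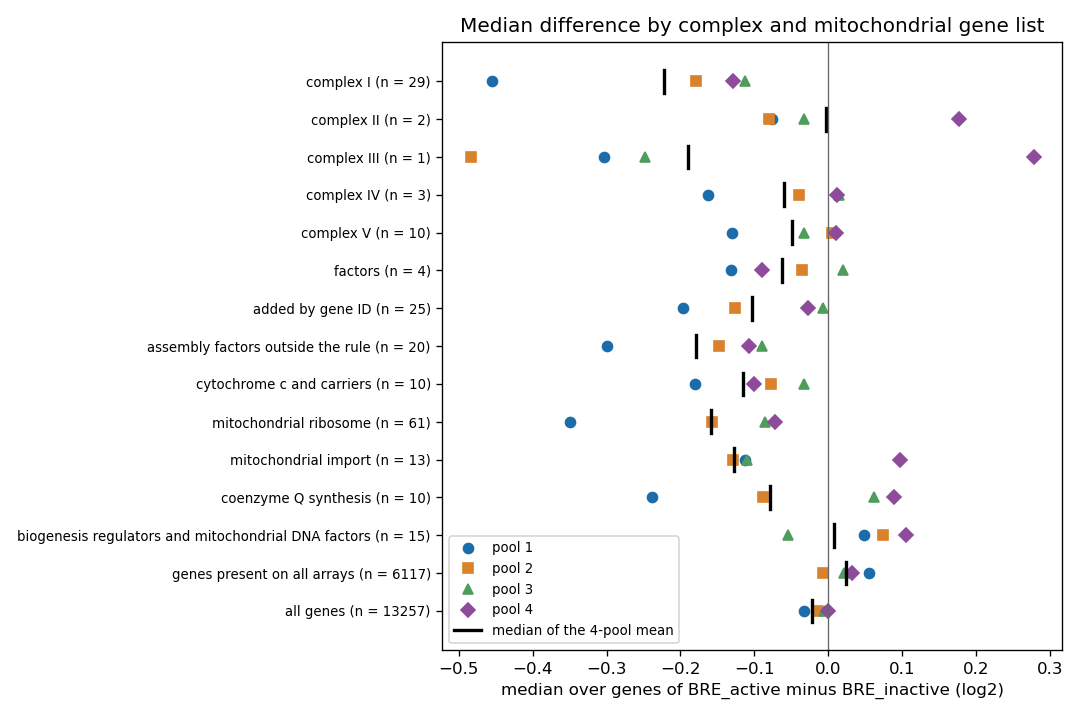
Median over genes of the difference (BRE_active minus BRE_inactive, log2) for each complex and each mitochondrial gene list, within each pool (points) and for the 4-pool mean (black bar), with the number of genes in brackets. Complex I, the outside assembly factors, cytochrome c with the carriers, and the mitochondrial ribosome lie below 0 in all 4 pools. So do the genes added by gene ID, with medians from -0.20 in pool 1 to -0.0067 in pool 3. The regulators lie between -0.05 and 0.10.

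The 4 factors had a median difference of -0.06 and all were below 0. COX15, which acts in making heme A for complex IV, measured 8.22, 8.0, 7.81 and 8.45 in BRE_inactive and 7.98, 7.78, 7.97 and 8.28 in BRE_active cells, a difference of -0.12 ± 0.15 (limma adjusted p = 0.769). ATP5S, known as coupling factor B, differed by -0.09 ± 0.15 (limma adjusted p = 0.831), and its pool differences of -0.26, -0.05, -0.03 and -0.01 were all below 0. The complex I assembly factors NDUFAF2 and NDUFAF1 differed by -0.03 ± 0.09 and -0.0020 ± 0.10. All 4 pairs of groups overlapped.

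The 50 symbols had 91 probe sets in all, 24 of them more than 1. Of the 41 not chosen, 17 were present on all 8 arrays, 14 of these were lower in BRE_active cells, and 11 had the sign of the chosen probe set. In complex I, such a probe set of NDUFA9 was higher (0.13, against -0.23 for the chosen one). One of NDUFA7 was near 0 (-0.02, against -0.30), and one of NDUFB3 was lower (-0.23, against -0.17). These examples were chosen by value. Such probe sets of NDUFB8, NDUFS1, NDUFA12, NDUFB4 and NDUFS6 were all below 0, from -0.15 to -0.02. None of the 41 was called in the fit on group alone. With the pool as a block 1 was called, a dim probe set of ATP5O, the stalk subunit known as OSCP, which was higher by 0.78 (limma adjusted p = 0.016 with the block and 0.180 without) while the chosen ATP5O probe set differed by 0.04 ± 0.08.

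Some subunits carry only a locus number in the deposited table. Names by gene ID from RefSeq, a step chosen after seeing the data, added 25 genes, of which 0 were called in either fit. Their median difference was -0.10. The shares of all genes called were 1.55% higher and 0.656% lower, and 4.9% and 2.56% with the block, so few calls would be looked for among 25. Complex III gained 6 genes, of which 4 were below 0. The 2 above 0 were the core proteins UQCRC1 (0.08 ± 0.12) and UQCRC2 (0.02 ± 0.10). Complex IV gained COX4I1 (-0.04 ± 0.07) and COX7C (-0.03 ± 0.09). It also gained COX7A2, present on 3 arrays, and COX7B, present on 0 and so not above background. Complex I gained NDUFV1, the NADH-binding subunit, lower in all 4 pools with a difference of -0.31 ± 0.17 (limma adjusted p = 0.447), and NDUFA10 and NDUFS7, with differences of 0.14 ± 0.11 and 0.04 ± 0.11. ATP5B, the catalytic beta subunit, differed by -0.17 ± 0.11 (limma adjusted p = 0.514) and was lower in all 4 pools (-0.16, -0.39, -0.03 and -0.11). With these genes the medians were -0.22 for 32 complex I genes, -0.11 for 7 of complex III, -0.03 for 7 of complex IV and -0.06 for 11 of complex V. Complex I thus stayed the lowest of those 4, with the poorly detected COX7A2 and COX7B counted in complex IV. Of its 32 genes 29 were the members themselves, so the 3 added genes could move its median little. Alone, those 3 had a median of 0.04, with 1 below 0 and 2 above. The genes added to complexes III and IV alone had medians of -0.08 and -0.03. The 11 added factors had a median of -0.22, with the lowest values in NDUFAF8 (-0.46 ± 0.20), for complex I, and COX17 (-0.43 ± 0.17), a copper chaperone for complex IV whose probe set was present on 2 BRE_inactive arrays and 0 BRE_active arrays.

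Assembly factors whose symbols lie outside the rule were looked at next, named by gene ID where RefSeq has the ID. Of 32 listed symbols 20 were measured, 18 of them below 0, with a median of -0.18, and 1 rose while 0 fell. Of all genes with a symbol 54.8% were below 0, 1.55% rose and 0.656% fell. The one that rose was ATPAF1, a chaperone for the F1 part of the ATP synthase. It measured 7.11, 7.14, 7.16 and 7.05 in BRE_inactive and 7.62, 7.36, 7.64 and 7.60 in BRE_active cells. The groups did not overlap, and the difference was 0.44 ± 0.09 with a limma adjusted p of 0.0429 (0.0311 with the block). The call was lost with a trended prior (0.146), after quantile normalization (0.121), with the mean of its probe sets (0.223), and on leaving out pool 1, 2, 3 or 4 or any single array but the BRE_active array of pool 2 or 4 (0.0820 to 0.286). SDHAF2, which attaches the flavin to SDHA, had the largest negative difference of the list, -0.58 ± 0.13, with a limma adjusted p of 0.0618, and passed with the block (0.0229). SDHAF2 measured 10.34, 10.28, 10.12 and 10.33 in BRE_inactive and 9.45, 9.57, 9.68 and 10.04 in BRE_active cells, so its groups did not overlap.

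Among cytochrome c and the carriers that serve the chain, 10 of 15 listed symbols were measured, and 1 fell and 0 rose, against the same shares of all genes. The median difference was -0.12. SLC25A4, an ADP/ATP carrier of the inner membrane, fell by 0.91 ± 0.16 on the log2 scale (limma adjusted p = 0.0250, 0.0096 with the block). It measured 9.17, 9.07, 8.94 and 9.02 in BRE_inactive and 7.79, 8.21, 7.97 and 8.60 in BRE_active cells, and the groups did not overlap. Without each array or pool in turn the adjusted p was 0.0022 to 0.176 and the difference stayed between -1.07 and -0.75. The call was lost with the mean of its probe sets (-0.40, limma adjusted p = 0.0899) and on leaving out pool 1, 2 or 3, any BRE_inactive array, or the BRE_active array of pool 1, 2 or 3.

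The other ADP/ATP carriers measured were not called. SLC25A5 differed by -0.03 ± 0.12 (limma adjusted p = 0.932) and SLC25A6 by 0.14 ± 0.09 (limma adjusted p = 0.502). Cytochrome c (CYCS) measured 11.56 ± 0.06 in BRE_inactive and 11.25 ± 0.22 in BRE_active cells (SD, n = 4 each), a difference of -0.31 ± 0.11 that was not called (limma adjusted p = 0.267). VDAC1, a channel of the outer membrane, varied most between pools. Its pool differences were -2.95, -0.05, -1.97 and -0.67, and the mean of -1.41 ± 0.43 had a limma adjusted p of 0.192.

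The mitochondrial ribosome, which translates the subunits encoded by mitochondrial DNA, had mostly negative differences. Of its 61 genes 52 were below 0, the median was -0.16, and 29 were lower in all 4 pools. None was called in the fit on group alone, 13 were lower and 1 higher at an unadjusted p under 0.05, and with the block 5 were called lower (MRPL10, MRPL17, MRPL2, MRPS12 and MRPS6). Over all genes with a symbol 54.8% were below 0 and 17.1% lower in all 4 pools, 8.06% were lower and 8.95% higher at an unadjusted p under 0.05, and 2.56% were called lower with the block. Of 13 genes of mitochondrial import 10 were below 0 with a median of -0.13, and 0 were called, with 2 lower and 2 higher at an unadjusted p under 0.05. With the block, TOMM20, a receptor of the outer membrane, was called higher (0.45 ± 0.20 in the fit on group alone). The share of all genes called higher with the block was 4.9%, and on group alone 1.55% were called higher and 0.656% lower. The 10 genes of coenzyme Q synthesis had a median of -0.08 with 0 called, 2 lower and 1 higher at an unadjusted p under 0.05.

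The regulators of mitochondrial biogenesis and the factors of mitochondrial DNA had a median near 0. Of 15 measured among 22 listed symbols 6 were below 0, the median was 0.0080, and differences ran from -0.15 to 0.43. The median counts 3 genes present on 0 arrays. In either limma fit 0 were called, against 1.55% of all genes higher and 0.656% lower on group alone. At an unadjusted limma p under 0.05, 0 were lower or higher on group alone, and 1 was higher with the block (13.4% of all genes). In all 4 pools 4 were higher and 1 lower, against 15.5% and 17.1% of all genes. TFAM, which packages and transcribes mitochondrial DNA, differed by -0.12 ± 0.12, and GABPA, a transcription factor of respiratory chain promoters, by 0.0080 ± 0.12. NRF1 and PPARGC1A, also regulators of these genes, were present on 0 arrays.

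Markers of other cells that the sort could hold, and a measure of RNA quality, were read on the same arrays. The list of 20 red blood cell symbols had 13 measured genes, of which 7 fell, 10 with the block. Over all genes with a symbol 0.656% fell, and 2.56% with the block. The mean level of the red blood cell markers was 9.19 to 11.3 on the BRE_inactive arrays and 6.13 to 8.21 on the BRE_active arrays. The globin genes HBZ, HBBR, HBAD, HBA1 and HBB were present on all 8 arrays. The red blood cell difference was -5.16 in pool 1, -2.42 in pool 2, -3.31 in pool 3 and -1.81 in pool 4, so it too was lowest in pool 1, where complex I was lowest, while pool 3 had the next lowest red blood cell difference and the complex I difference nearest to 0 (-0.08). The surface ectoderm markers, 7 measured and 0 called, were also lowest in pool 1 (-1.20, against -0.11, -0.53 and 0.48), with mean levels of 7.12 to 7.76 in BRE_inactive and 6.57 to 7.60 in BRE_active cells. The somite and mesenchyme markers, 9 measured and 0 called, had mean levels of 5.48 to 5.95 and 5.13 to 6.59, and differed by -0.36 in pool 1 and by 0.96, 0.64 and 0.64 in the others. Of the 4 endothelial markers 0 were called, and 1 was higher with the block, against 4.9% of all genes. The endothelial markers had mean levels of 4.89 to 5.17 and 5.20 to 6.09, and differed by 0.32, 1.15, 0.90 and 0.47 in pools 1 to 4. The signal of the 3′ less that of the 5′ control probe sets, a measure of RNA and labelling quality, was higher in BRE_active cells in all 4 pools, by 0.11, 0.62, 0.40 and 0.21. The part of these markers and of the 3′ to 5′ signal in the respiratory chain differences was not tested.

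**Figure D5:**
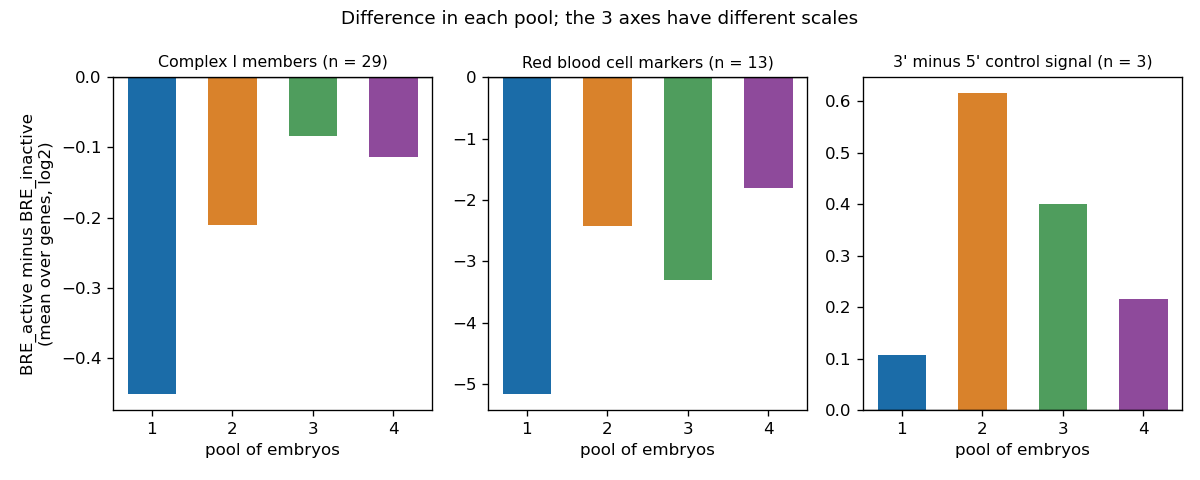
Difference within each pool (BRE_active minus BRE_inactive, mean over genes, log2) of the complex I members, the red blood cell markers and the 3′ minus 5′ signal of control probe sets, on 3 different scales. Pool 1 has the lowest bar for complex I (-0.45) and for the red blood cell markers (-5.16), and the smallest bar for the control signal (0.11).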

How the data were processed

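RNA of 8 sorted fractions was measured on Affymetrix arrays. The authors deposited normalized log2 values per probe set and array, with an adjusted p-value and, per group, how many arrays called each probe set present. Not given in the sources used here were the background correction, normalization, probe summary, detection caller and genome build, so coordinates are left out. The deposited series values matched within 5e-09, and the authors' adjusted p-value was obtained again from limma within 6.13e-13. The 8 columns of call letters per array were not used. Groups were read from the sample titles.

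After 96 control probe sets were left out, 38439 were fitted by lmFit and eBayes of limma 3.58.1, under R 4.3.3 (term for group, Benjamini-Hochberg over all probe sets, threshold 0.05). This script was tested on simulated data. SE and 95% intervals come from that fit. Symbols are those of the deposited table and can be old. RefSeq names (assembly GRCg7b) were matched by gene ID for 22925 of 26142 probe sets that carry one, and for 48 of the 50 members.

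The members, lists and tests were chosen with earlier results of these data known. Members named in the text are, per complex, the 3 with the smallest p and those with the highest and lowest level, plus any member called. Other members are said to be chosen by value, complete complex V, show other probe sets, or, for COX4NB, explain the match. Both fractions of a pool came from the same embryos, so pool numbers pair the arrays. Deviations of same-pool arrays from the group means correlated at -0.14, 0.20, 0.50 and 0.58. Alternatives were the pool as a block, a trended prior, median centring, quantile normalization, a filter on detection, the series values, the mean of all probe sets of a symbol, and leaving out each array or pool. Adding genes by gene ID and counting NDUFA4 with complex IV, chosen after seeing the data, complete the 21. Pairs of arrays correlated at 0.974 to 0.996, none held the same values, and the number of arrays limits the precision.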

Additional observations from a re-analysis of the deposited data

Results flagged for a closer look

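Of 76 sets of 4 arrays examined, 10 had 1 array that stood far from the other 3 by Dixon's criterion at the 95% level. For a single set chance gives about 1 in 20. The sets share the same arrays and some contain others, so they are not independent and the count cannot be judged by that rate. In 7 of the 10 the array was the BRE_active array of pool 4. It read high for NDUFA4 (12.53, the next at 12.23), NDUFV2 (9.99, next 9.62), SDHD (11.05, next 10.65), COX6C (12.30, next 12.06) and ATP5L (11.93, next 11.66), and for the mean over all 50 members (10.62, next 10.39). It read low for ATP5J (4.29, next 4.53), whose chosen probe set was present on 0 arrays. NDUFS5 was high on the BRE_inactive array of pool 1 (5.83, next 5.61). The mean of the somite and mesenchyme markers was low on the BRE_active array of pool 1 (5.13, next 6.47), and ATPAF1 was low on the BRE_active array of pool 2 (7.36, next 7.60).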

How the results depend on the processing

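Across 21 alternatives 0 members were called higher, and 0 lower except with the pool as a block, where 1 was (NDUFA4, limma adjusted p = 0.0477, difference -0.39). The block changed no other member's call. The complex I median was negative under all 21 alternatives, -0.33 to -0.11 on leaving out an array or pool. The medians of all members, of complexes III, IV and V and of the factors were also negative in all 21. That of complex II changed sign (-0.06 to 0.04). The median over all genes was itself negative in 20 of the 21 (-0.04 to 0.03), so the sign alone does not set these sets apart. The values nearest to 0 were -0.02 for complex V and -0.01 for complex IV. The block and the trended prior cannot move a median, and the series values repeat the same levels. Those alternatives therefore do not bear on the signs of the medians. Counting NDUFA4 with complex IV can move only the medians of complexes I and IV. The detection filter dropped no complex I gene, so it left that median unchanged too. The factor median ranged from -0.14 to -0.00099 on leaving out an array or pool. Small differences changed sign for COX6A1 (0.00057 with median centring, 0.0058 with quantile normalization, 0.10 with the mean of probe sets), NDUFAF1 (0.017 with median centring), and, with the mean of probe sets, SDHD (0.021) and ATP5C1 (0.23). On leaving out an array or pool the ranges also crossed 0 for NDUFS5 (-0.14 to 0.035), SDHD (-0.16 to 0.0050), COX6A1 (-0.070 to 0.043), ATP5J (-0.098 to 0.038), ATP5S (-0.21 to 0.0049), NDUFAF2 (-0.080 to 0.023) and NDUFAF1 (-0.083 to 0.075). The mean of probe sets for SDHD counts a second probe set present on 0 arrays, with a difference of 0.10. The causes were not tested. The chosen ATP5J probe set could not be fitted under the detection filter. The precision is limited by 4 arrays per group, the normalization is not known, the chosen probe sets of ATP5J and NDUFS5 lay near background, and a probe set cannot be checked against another for the 26 members that have 1.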
